A study of Mus musculus with 11 samples.

Results

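Developmental regulators of the lung, the T-box factors Tbx2, Tbx3, Tbx4 and Tbx5, the transcription factors Foxf1, Gli1, Hoxa5 and Nkx2-1 and the ligands Wnt2 and Wnt5a, were followed in RNA of the mouse airway. These 10 genes of the 21899 in the deposited table were taken as a list of symbols that had been selected on earlier results of the same libraries. All 10 were measured, and all had a mean of at least 0.5 FPKM (fragments scaled to exon length and to sequencing depth), the level above which 14004 genes were tested. Because the list was drawn up with the levels in view, the values of the members are a description and no p of a single member is printed. Calls of members at a threshold of p are named and counted further on, and nothing is read from them about the members.

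The libraries came from male BALB/c mice, labelled as wild type and obtained at 6 to 8 weeks of age. In the OVA/LPS/Vehicle group (OL), mice were sensitized with 50 µg of ovalbumin (OVA) in alum on days 0 and 7, challenged intranasally with 5 µg of OVA on days 14 to 17, and given 50 ng of lipopolysaccharide (LPS) intranasally on days 19 and 21 and vehicle into the trachea on days 21, 22 and 23. The OVA/LPS/GGsTop group (OLG) received GGsTop, an inhibitor of γ-glutamyl transferases, at 0.5 mg/kg in place of vehicle, and the PBS group was not sensitized and received PBS only. RNA was taken on day 25 from bluntly dissected airway. The labels name trachea as the tissue, whereas the methods describe an airway without trachea. There were 3 PBS libraries (PBS 1 to 3), 4 OL libraries (OL 12, OL 34, OL 56 and OL 78) and 4 OLG libraries (OLG 1 to 4). Their depth, inferred from the FPKM values and exon lengths, was 14513136 to 18632382 fragments each. It is not stated whether the numbers of the OL libraries stand for pools of mice, nor that the libraries of a group came from separate animals, so the spread given here is that between libraries and may be partly technical.

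In the embryo, the lung buds form where the foregut endoderm expresses Nkx2-1 and the mesenchyme around it expresses Tbx4, Tbx5, Wnt2 and Foxf1. Epithelial sonic hedgehog (Shh) acts on the mesenchyme through Patched, Smoothened and the GLI factors, of which Gli1 is itself a transcriptional target of the pathway, and mesenchymal Wnt2 acts back on the epithelium through β-catenin. In the adult lung, the T-box members, Foxf1 and Hoxa5 are expressed in mesenchymal cells, Foxf1 also in endothelium, Gli1 marks mesenchymal cells near airways and vessels, and NKX2-1 maintains the surfactant and secretoglobin genes of the epithelium.

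The T-box members lie in 2 pairs. On GRCm38, Tbx2 (chr11:85832551-85841948) and Tbx4 (chr11:85886422-85916097) are separated by 44.5 kb, and Tbx3 (chr5:119670669-119684724) and Tbx5 (chr5:119832668-119885219) by 148 kb, all on the plus strand. Foxf1 lies at chr8:121084386-121088144 (plus), Gli1 at chr10:127329882-127341974 (minus), Wnt2 at chr6:17988940-18030585 (minus), Wnt5a at chr14:28504750-28527448 (plus), Hoxa5 at chr6:52201754-52204587 (minus) and Nkx2-1 at chr12:56531958-56536908 (minus). RefSeq promoter windows, from 250 bases before to 50 bases after a start, were at hand for Tbx4, Wnt2, Hoxa5 and Nkx2-1. The bases before the start of Tbx4 and Wnt2, the members whose mean level was furthest below PBS in OL, are shown 5′ to 3′ on the strand of the gene (GRCm38.p6), as far as they lie outside the exons that GENCODE annotates for the gene. Capitals mark the GC box GGGCGG and the TATA box TATAAA on either strand.
Tbx4, chr11:85896515-85896764, plus strand: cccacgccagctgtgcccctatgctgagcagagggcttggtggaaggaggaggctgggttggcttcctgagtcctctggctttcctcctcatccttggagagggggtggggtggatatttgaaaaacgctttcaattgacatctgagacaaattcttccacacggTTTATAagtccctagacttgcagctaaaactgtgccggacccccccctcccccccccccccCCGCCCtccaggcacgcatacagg
Wnt2, chr6:18030586-18030695, minus strand: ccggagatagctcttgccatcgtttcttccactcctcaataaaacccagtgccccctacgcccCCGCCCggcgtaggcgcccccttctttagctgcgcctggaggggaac

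The Tbx4 window starts 10.1 kb inside the gene, before the shortest of its annotated transcripts, and holds 8 CG dinucleotides, whereas the Wnt2 window holds 27, against a median of 7 over 32851 promoter windows. Over the whole 300 bases, and counting both strands, the GC box was found in the windows of Tbx4, Wnt2 and Nkx2-1 and in 35.7% of all windows, and the CCAAT box in those of Wnt2 and Hoxa5 and in 37.4% of all. TATAAA was found in the Tbx4 window (13.6% of all) and CCACCCA, the core of the GLI motif, in the Hoxa5 window (9.30% of all). None of the 4 windows held AGGTGTG, the T-box motif (5.84% of all), the forkhead motif GTAAACA (3.65%) or the NKX2-1 motif CAAGTG (13.6%). No searched motif contains another on either strand, and a match or its absence says nothing of binding.

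Several libraries stood apart. The slope of expression on GC content was 0.53 log2 per 10 GC points in PBS 3 and 0.05 to 0.06 in PBS 1 and PBS 2, it was −0.26 to −0.19 in the OL libraries and 0.05 to 0.11 in the OLG libraries. The differences of the members are therefore given on the deposited values and after removal of the trend with GC content in each library. Mitochondrially encoded genes held 14.5% to 19.5% of the summed FPKM in OL, 2.08% to 10.1% in PBS and 7.40% to 11.1% in OLG. On this share, too, OL did not overlap the other groups, and its part in the levels of the members was not tested. Thyroglobulin (Tg) was at 90.6 FPKM in OL 12, 166 in OL 34 and 303 in OL 56, but at 0.256 in OL 78 and at most 1.44 in the other groups, and the thymocyte gene Rag1 was at 8.53 in OL 12 and at most 0.0976 elsewhere. The summed FPKM of the cartilage list was 13.6 to 161 in PBS, 46.1 to 101 in OL and 20.6 to 263 in OLG, with PBS 2 and OLG 4 highest in their groups. Of the 9 airway epithelial markers, Scgb1a1 of club cells stood between 26145 and 47905 FPKM. Foxj1 of ciliated cells had means of 28.4 FPKM in PBS, 76.4 in OL and 102 in OLG. Krt5 (0.0288 to 33.1 FPKM) and Trp63 (0.0378 to 1.61 FPKM) were low in some libraries. Alveolar epithelial transcripts were also present in every library.

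**Figure D1:**
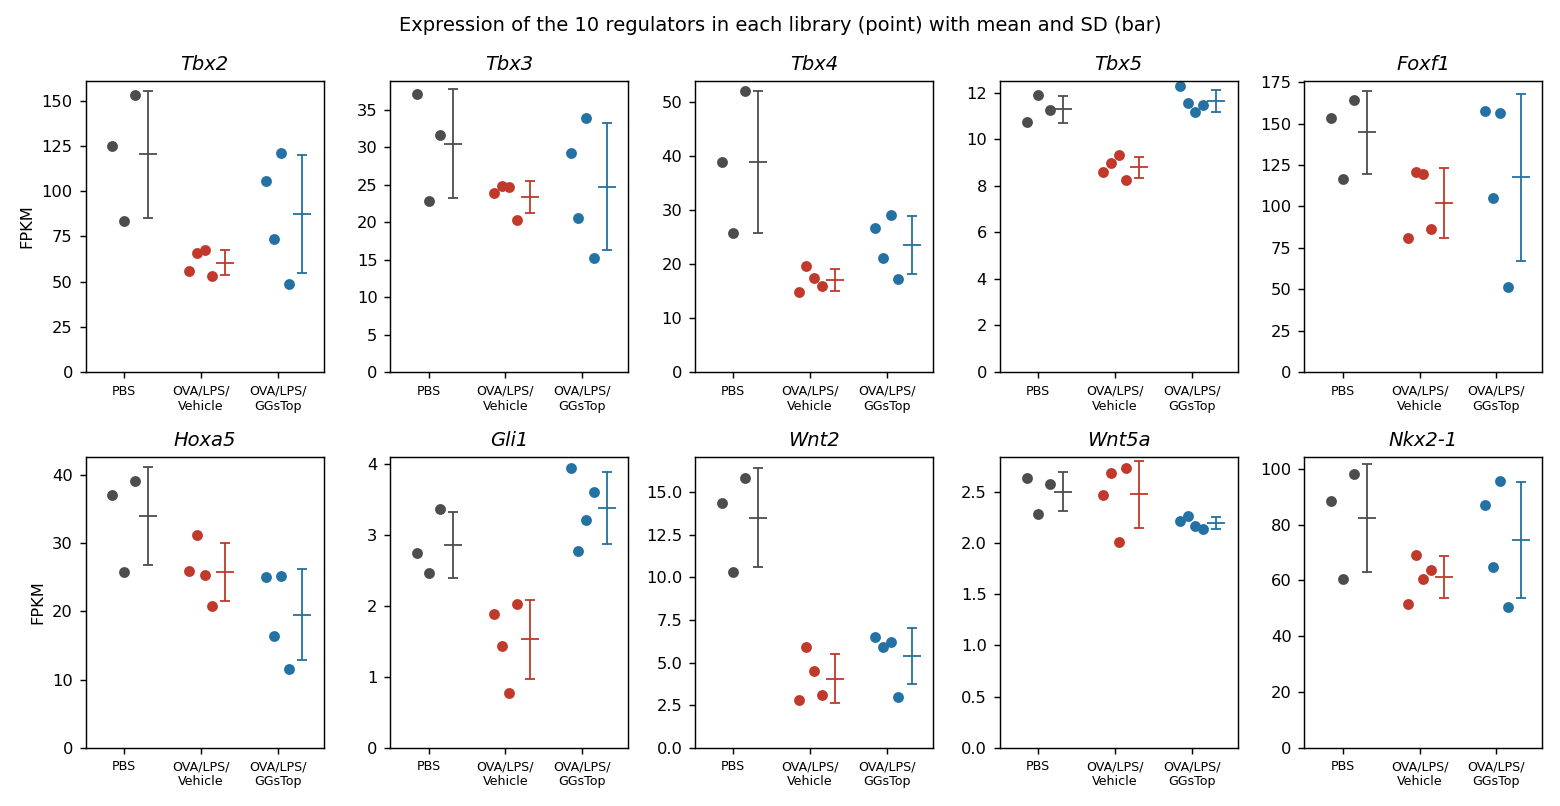
FPKM (linear axes from 0) of the 10 regulators in the 3 PBS, 4 OL and 4 OLG libraries. Points are libraries, and the bars beside them are mean ± SD. Tbx5 and Gli1 of OL lie below every library of the other groups, and Wnt2 of PBS lies above every library of the other groups.

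Among the 4 T-box members, Tbx4 was furthest below the PBS level in OL, Tbx2 was the most abundant, and Tbx5 varied least between libraries. Tbx4, a factor of lung and hindlimb mesenchyme, was at 38.9, 25.7 and 52.1 FPKM in PBS 1 to 3. It was at 14.9, 19.7, 17.4 and 16.0 FPKM in OL 12, 34, 56 and 78, and at 26.8, 21.2, 29.0 and 17.2 in OLG 1 to 4. Every OL library was below every PBS library, while OLG 4 lay inside the OL range. The group means ± SD were 38.9 ± 13.2 (n = 3), 16.99 ± 2.07 (n = 4) and 23.6 ± 5.35 FPKM (n = 4), so that the mean of OL was 2.29-fold lower than that of PBS. The limma difference of log2(FPKM + 1) was −1.10 (SE 0.23) on the deposited values and −0.91 (SE 0.23) after the GC correction.

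Tbx2, a T-box repressor of lung mesenchyme and the neighbour of Tbx4, was at 125, 83.2 and 153 FPKM in PBS, at 55.97, 65.7, 67.2 and 53.0 in OL and at 105, 73.7, 121 and 48.8 in OLG. Here too PBS and OL did not overlap, and OLG 4 was the lowest library of all. The mean was 1.99-fold lower in OL (60.5 ± 7.03, n = 4) than in PBS (120 ± 35.1, n = 3), with a difference of −0.95 (SE 0.29) on the log2 scale. Tbx2 has one of the highest GC contents of the genes tested (63.2%, the 99.2 percentile), and its difference shrank to −0.60 (SE 0.28) after the GC correction. Tbx2 and Tbx4 varied alike over the 11 libraries (Pearson r of log2(FPKM + 1) = 0.95, and 0.90 after the GC correction), which includes the differences between groups that they share.

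Tbx5, a T-box factor of heart, forelimb and lung mesenchyme, was at 10.8, 11.9 and 11.2 FPKM in PBS, at 8.60, 8.99, 9.33 and 8.26 in OL, and at 12.3, 11.5, 11.2 and 11.5 in OLG. The OL libraries lay below both other groups, which overlapped each other. The coefficient of variation within a group was 4.08% to 5.28%. The difference on the log2 scale was −0.33 (SE 0.08) for OL against PBS and 0.37 (SE 0.08) for OLG against OL. After the GC correction these were −0.27 (SE 0.08) and 0.29 (SE 0.07). For OLG against OL, Tbx5 was called in 2 of 8 fits that left out a library, and not after the GC correction. Tbx5 is also a gene of heart muscle, and heart muscle transcripts were present in all libraries (Myh6 at 1.45 to 435 FPKM). The summed FPKM of the 6 heart muscle markers was 95.3 to 1726 in PBS, 838 to 1348 in OL and 557 to 2350 in OLG, none of the 6 was at 0 in all libraries of a group, and their part in the Tbx5 level was not tested.

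Tbx3, the neighbour of Tbx5, was at 37.1, 22.8 and 31.6 FPKM in PBS, at 24.0, 24.8, 24.7 and 20.3 in OL and at 29.3, 20.6, 33.99 and 15.2 in OLG. All 3 groups overlapped. The difference for OL against PBS was −0.35 (SE 0.24), and −0.14 (SE 0.26) after the GC correction. That for OLG against OL was 0.02 (SE 0.22), and −0.15 (SE 0.24) after the GC correction. It fell below 0 also when libraries were rescaled to the same total or median. Unlike the pair of Tbx2 and Tbx4, Tbx3 and Tbx5 had a Pearson r of 0.16 over the 11 libraries.

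Of the other 13 T-box genes, 5 were expressed highly enough to be tested. Between OL and PBS, 2 of the 5 rose, Mga (0.42, SE 0.15, adjusted p = 0.0424), which pairs a T-box with a MAX-binding domain, and Tbx20 (1.10, SE 0.39, adjusted p = 0.0436), a factor of heart muscle. Over all genes tested, 15.9% were called higher there. After the GC correction Mga was at 0.01 (adjusted p = 0.941) and Tbx20 at 0.69 (adjusted p = 0.178). Tbx20 was at 0.00553 FPKM, or 1 fragment, in PBS 1, where the heart muscle list was lowest, and at 3.26 FPKM in OLG 4, where it was highest, and the part of heart tissue in its difference was not tested. Tbx1, a gene of pharyngeal mesoderm, was higher in OLG (11.4, 10.3, 9.80 and 14.6 FPKM) than in any OL library (5.87, 6.93, 7.05 and 8.20) or PBS library (5.47, 6.31 and 6.26). It rose by 0.64 (SE 0.13, adjusted p = 0.0224) against OL and by 0.82 (SE 0.14, adjusted p = 0.016) against PBS. After the GC correction these were 0.34 (adjusted p = 0.185) and 0.88 (adjusted p = 0.0112), and Tbx1 then also rose between PBS and OL (0.54, SE 0.14, adjusted p = 0.0259).

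Foxf1, a forkhead factor of lung mesenchyme and endothelium that responds to hedgehog signalling, was the most abundant member, with a mean of 119 FPKM over all libraries. It was at 153, 117 and 165 FPKM in PBS, at 81.0, 121, 120 and 86.4 in OL and at 157, 105, 157 and 51.6 in OLG. The groups overlapped, and the widest spread was that of OLG (118 ± 50.4 FPKM, n = 4), where OLG 4 stood at 36.9% of the mean of the other libraries of its group. The differences were −0.51 (SE 0.34) for OL against PBS, 0.10 (SE 0.31) for OLG against OL and −0.41 (SE 0.34) for OLG against PBS. After the GC correction they were −0.29 (SE 0.36), −0.08 (SE 0.33) and −0.37 (SE 0.36). The divergent transcript Fendrr beside Foxf1 was not analysed here.

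Hoxa5, a homeobox gene whose loss impairs lung development, had its lowest mean in OLG, which was so of Wnt5a alone among the other members. It was at 37.1, 25.7 and 39.1 FPKM in PBS, at 25.9, 31.1, 25.3 and 20.8 in OL and at 24.98, 16.4, 25.2 and 11.6 in OLG. Every OLG library was below every PBS library, and both groups overlapped with OL. The difference between OLG and PBS was −0.81 (SE 0.25), and −0.85 (SE 0.27) after the GC correction.

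**Figure D2:**
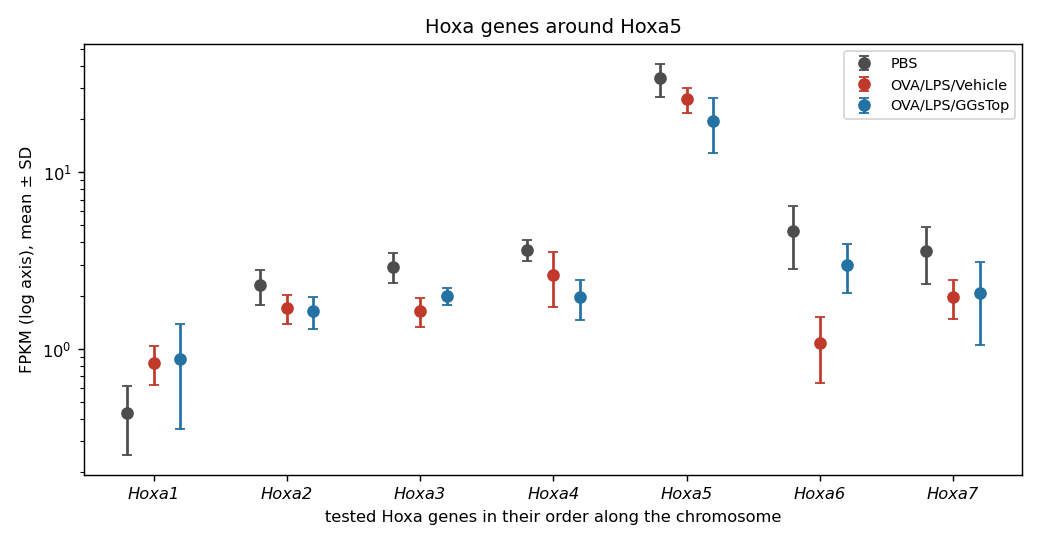
Mean ± SD of FPKM (log axis) of the tested Hoxa genes in their order along the chromosome, in PBS (n = 3), OL (n = 4) and OLG (n = 4). Hoxa5 lies above its neighbours in every group, and Hoxa6 is lowest in OL.

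Hoxa5 was expressed far above the other genes of its cluster. In PBS its mean was 33.97 FPKM, whereas Hoxa6 next to it was at 4.65, Hoxa4 on the other side at 3.63 and Hoxa7 at 3.60 FPKM. Hoxa9 had a mean of 0.0226 FPKM in PBS, and Hoxa10, Hoxa11 and Hoxa13 were listed at 0 in every library. Of the 38 other Hox genes 11 were tested, and 4 of these fell in OL against PBS, where 22.1% of all genes tested were called lower. Hoxa6 fell by 1.41 (SE 0.25, adjusted p = 0.00402), Hoxa3 by 0.57 (SE 0.13, adjusted p = 0.00977) and Hoxb6 by 0.76 (SE 0.19, adjusted p = 0.0113), and the remaining gene was Hoxb3. Only Hoxa6 of these passed after the GC correction (−1.08, adjusted p = 0.0147), where 12.9% of all genes were called lower. The mean of Hoxa6 was 4.65 ± 1.82 FPKM in PBS, 1.08 ± 0.435 in OL and 2.99 ± 0.913 in OLG. Against OL it rose by 0.94 (SE 0.23, adjusted p = 0.0345) in OLG, a difference that was 0.67 (adjusted p = 0.126) after the GC correction. Hoxb4, with a mean of 8.26 FPKM, and Hoxb5, with 3.71 FPKM, were the most abundant of the other Hox genes.

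Among 36 tested mesenchymal regulators besides the members, 11 fell and 1, Zeb2, rose between PBS and OL, against 22.1% and 15.9% of all genes tested. Once corrected for GC content, 8 were called lower and none higher, against 12.9% and 7.87% of all genes. Zeb2 was then at −0.11 (adjusted p = 0.378). Pdgfrb, the PDGF receptor of pericytes and fibroblasts, fell by 1.06 (SE 0.14, adjusted p = 0.00337), from 44.9, 39.6 and 51.3 FPKM in PBS to 20.9, 21.4, 20.7 and 21.2 in OL. The Notch target Heyl fell by 1.19 (SE 0.19, adjusted p = 0.00365) and the TGFβ receptor Tgfbr2 by 0.52 (SE 0.10, adjusted p = 0.00583). All of these passed after the GC correction too (−0.82, −0.93 and −0.52). In OLG, Pdgfrb was lower than in PBS (−0.67, SE 0.14, adjusted p = 0.0298). After the GC correction 2 genes of the list were called lower there and 0 higher, against 1.49% and 2.77% of all genes. Between OLG and OL 1 gene of this list, Fgfr1, rose (0.71, SE 0.13, adjusted p = 0.019) and 4 fell, Nr2f2, Meox2, Foxp1 (−0.66, SE 0.13, adjusted p = 0.0198) and Zeb2 (−0.52, SE 0.12, adjusted p = 0.0288), and none of the list passed after the GC correction. Over all genes tested, 6.90% were called higher there and 1.81% lower on the deposited values. Tcf21 (mean 41.4 FPKM) and Bmp4 (33.2 FPKM) were the most abundant of the list.

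**Figure D3:**
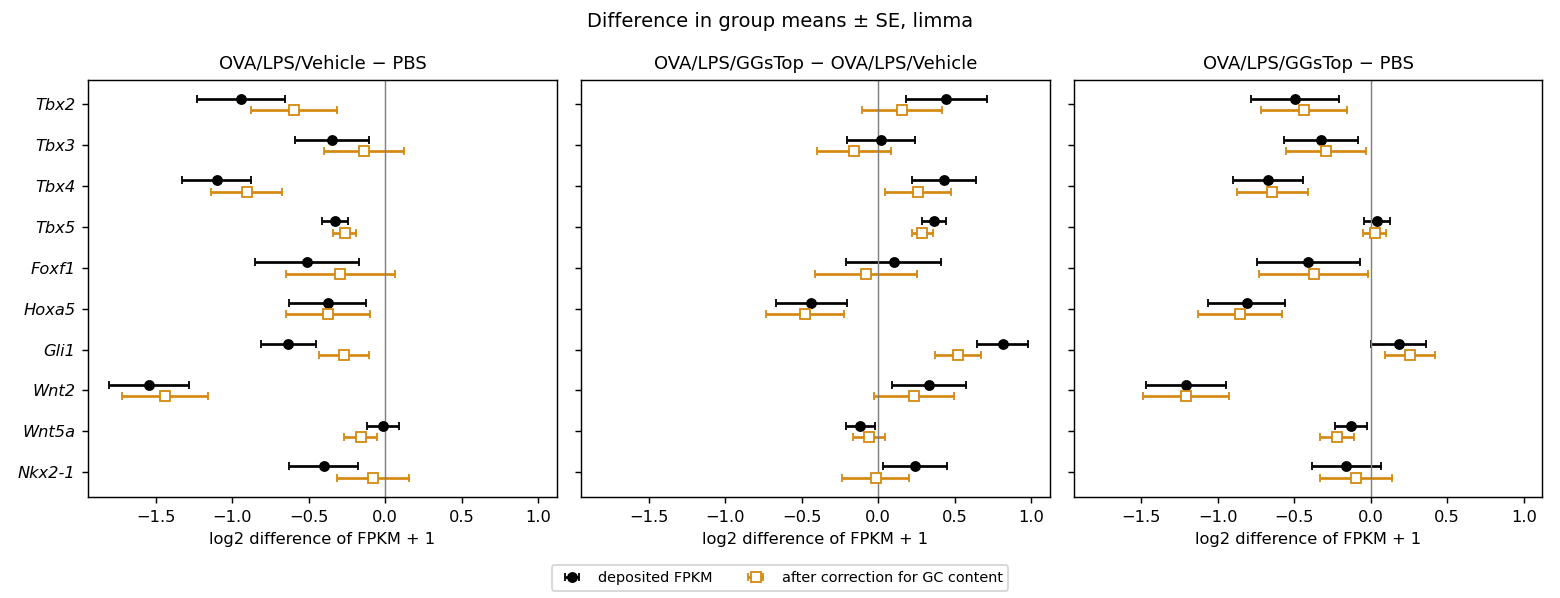
Differences in group means of log2(FPKM + 1) ± SE for the 10 regulators in the 3 comparisons. Black points are the deposited values and open orange squares the values after correction for GC content. In the left panel Wnt2 (−1.54) and Tbx4 (−1.10) lie furthest from 0, and in the middle panel Gli1 (0.82) does.

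Gli1, the hedgehog effector whose transcript is used as a readout of the pathway, had the lowest values in OL and the highest in OLG. It was at 2.75, 2.47 and 3.37 FPKM in PBS, at 1.89, 1.43, 0.779 and 2.02 in OL, and at 3.95, 2.77, 3.21 and 3.61 in OLG. Each OL library was below each library of the other groups. These levels rest on 62 to 314 fragments per library. The mean in OLG (3.39 ± 0.508, n = 4) was 2.21-fold that of OL (1.53 ± 0.561, n = 4), and that of PBS (2.86 ± 0.464, n = 3) was 1.87-fold that of OL. On the log2 scale the differences were 0.82 (SE 0.17) and, for OL against PBS, −0.63 (SE 0.18). With a GC content of 59.0% (the 93.5 percentile), Gli1 was among the members most touched by the correction, after which the differences were 0.52 (SE 0.15) and −0.27 (SE 0.16).

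Of 18 other genes of the hedgehog pathway tested, 1 rose, 10 fell and 7 were not called in OL against PBS, where 22.1% of all genes tested were called lower and 15.9% higher. The gene that rose was Shh, the epithelial ligand, from 3.66, 2.88 and 5.20 FPKM in PBS to 8.02, 9.49, 7.32 and 9.79 FPKM in OL (0.99, SE 0.15, adjusted p = 0.00355). Shh passed after the GC correction as well (1.10, SE 0.15, adjusted p = 0.00691). Kif7, a kinesin that regulates the GLI factors in the cilium, fell by 0.73 (SE 0.13, adjusted p = 0.00402), and Scube1, a secreted protein of the SCUBE family, fell by 0.79 (SE 0.14, adjusted p = 0.00439). Scube2, which helps to release the ligand, differed by −1.14 (SE 0.21, adjusted p = 0.0047), and the genes that fell also included the coreceptor Boc, the transducer Smo, the inhibitor Sufu, the factor Gli2, Disp1 and Scube3.

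Most of these genes were not called after the GC correction. Then 2 genes of the list fell, Scube1 (−0.47, adjusted p = 0.0259) and Scube2 (−1.07, adjusted p = 0.0145), Kif7 stood at −0.36 (adjusted p = 0.0516), and 2 rose, Shh and the coreceptor Gas1 (0.67, adjusted p = 0.0405). Of all genes tested, 12.9% were called lower and 7.87% higher after the correction. The median difference of the list was −0.47 on the deposited values and −0.19 after the correction, against −0.01 and −0.07 over all genes tested. Ptch1, like Gli1 a target of the pathway, was at 8.27, 6.83 and 7.48 FPKM in PBS, at 6.53, 7.43, 5.81 and 5.93 in OL and at 7.22, 6.88, 7.78 and 5.83 in OLG, and the groups overlapped. Hhip, another target and an inhibitor of the ligand, was at 6.08 to 9.98 FPKM in OL and at 4.199 to 8.15 in PBS. Between OLG and OL, Scube3 (0.68, SE 0.15, adjusted p = 0.0275) and Boc (0.55, SE 0.13, adjusted p = 0.0292) rose and no gene of the list fell, and none passed after the GC correction, where Scube3 was at 0.44 (adjusted p = 0.127) and Boc at 0.32 (adjusted p = 0.143). Ptch1, Gas1, Smo, Sufu, Gli2 and Disp1 were named after their values were seen.

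**Figure D4:**
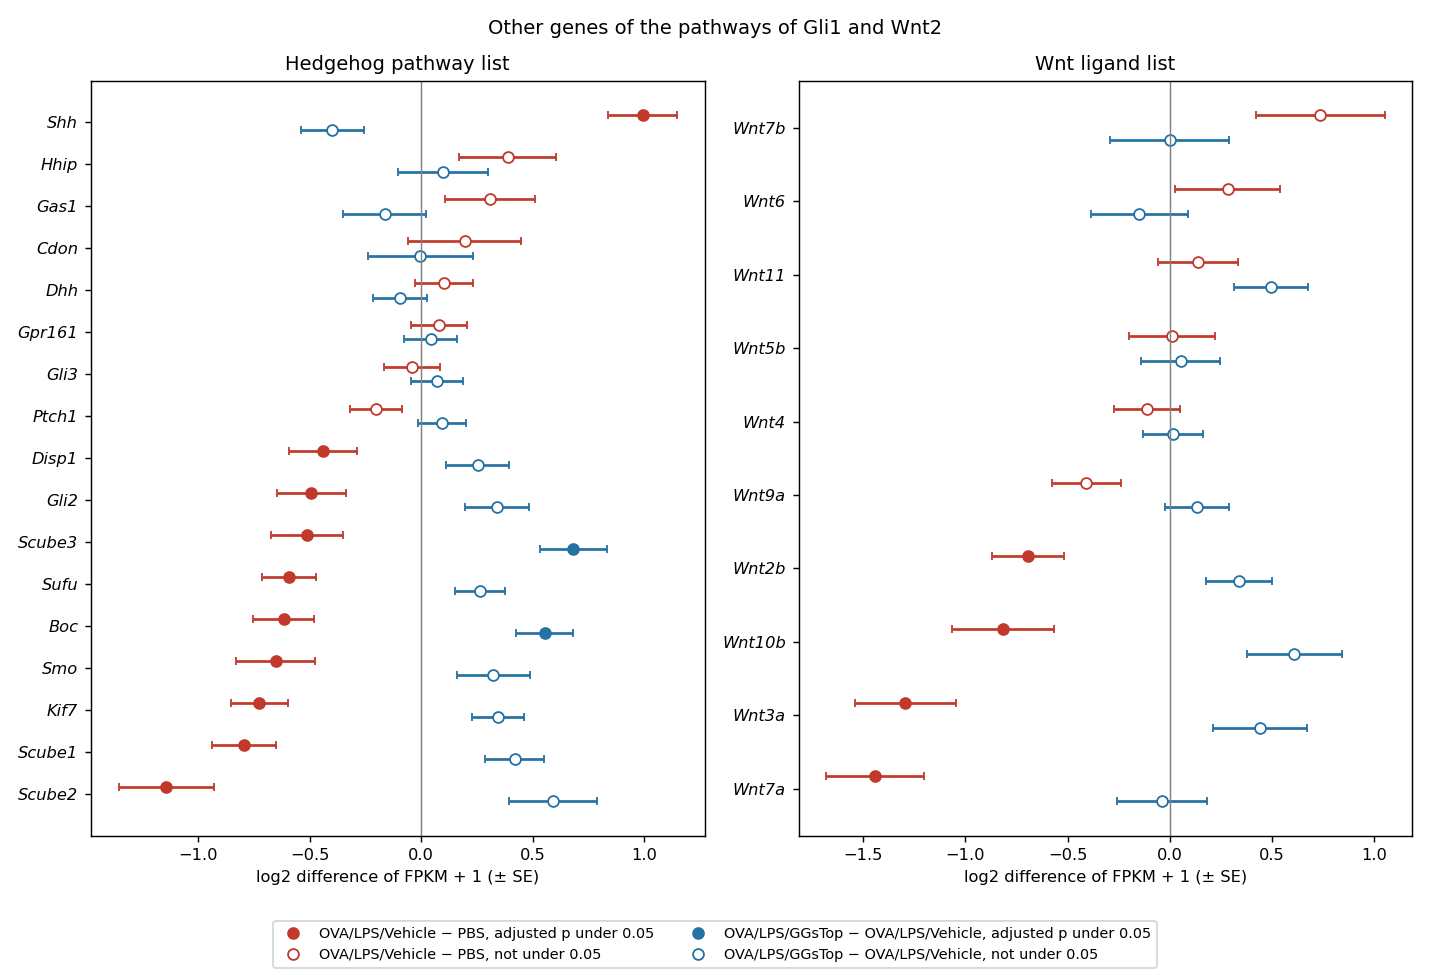
Differences of log2(FPKM + 1) ± SE on the deposited values for 17 of the 18 tested genes of the hedgehog list and all 10 of the Wnt ligand list. Red is OL against PBS and blue is OLG against OL, and filled points have an adjusted p under 0.05. Shh is the filled point to the right of 0 in red, and 9 of the drawn hedgehog genes and 4 Wnt ligands are filled to the left in red.

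Wnt2, the mesenchymal ligand that acts with Wnt2b in specification of the lung, had the largest difference of the members and was also lower than PBS after GGsTop. It was at 14.4, 10.3 and 15.9 FPKM in PBS, at 2.77, 5.92, 4.48 and 3.08 in OL and at 6.51, 5.90, 6.18 and 2.97 in OLG, or 97 to 666 fragments per library. Every PBS library was above every library of the other groups, which overlapped each other. The means were 13.5 ± 2.88 FPKM (n = 3) in PBS, 4.06 ± 1.44 (n = 4) in OL and 5.39 ± 1.63 (n = 4) in OLG, or 3.33-fold and 2.51-fold below PBS. The differences from PBS were −1.54 (SE 0.26) and −1.21 (SE 0.26), and they were little moved by the GC correction (−1.44, SE 0.28, and −1.21, SE 0.28).

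Wnt5a, a ligand of the noncanonical pathway in distal lung mesenchyme, stood at 2.64, 2.28 and 2.58 FPKM in PBS, 2.47, 2.68, 2.01 and 2.73 in OL and 2.22, 2.26, 2.17 and 2.13 in OLG. PBS and OL overlapped, and all OLG libraries were just below the lowest PBS library. The differences were −0.01 (SE 0.10) for OL against PBS, −0.12 (SE 0.09) for OLG against OL and −0.13 (SE 0.10) for OLG against PBS. After the GC correction they were −0.16 (SE 0.11), −0.06 (SE 0.10) and −0.22 (SE 0.11).

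Of 10 tested Wnt ligands that are not members, 4 fell in OL against PBS, where 22.1% of all genes tested were called lower. Wnt7a, an epithelial ligand, fell by 1.44 (SE 0.24, adjusted p = 0.00371), from 8.18, 4.21 and 10.1 FPKM in PBS to 1.57, 2.21, 2.25 and 1.94. It was also lower in OLG than in PBS (−1.48, SE 0.24, adjusted p = 0.0144), at 1.91, 2.32, 2.42 and 1.1503 FPKM. Wnt3a fell by 1.29 (SE 0.25, adjusted p = 0.00499) and Wnt2b by 0.69 (SE 0.18, adjusted p = 0.013) in OL, and the remaining gene was Wnt10b. After the GC correction Wnt7a (−1.18, adjusted p = 0.0129) and Wnt3a (−0.97, adjusted p = 0.0215) passed and Wnt2b did not (−0.38, adjusted p = 0.1), while Wnt7b was then called higher. Of all genes tested, 12.9% were called lower and 7.87% higher after the correction. Wnt11 was the most abundant of these ligands, with a mean of 7.66 FPKM.

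Of 37 tested Wnt receptors, effectors and inhibitors, 11 fell and 1, Fzd3, rose in OL against PBS, where 22.1% of all genes tested were called lower and 15.9% higher. Corrected for GC content, 7 were called lower and 1, Sfrp5, higher, against 12.9% and 7.87% of all genes. Fzd3 was then at −0.04 (adjusted p = 0.815). The receptor Fzd1 was at 23.2, 23.1 and 26.8 FPKM in PBS and at 12.7, 14.7, 13.4 and 14.8 in OL, a fall by 0.77 (SE 0.10, adjusted p = 0.00337). The repressor Tcf7l1 fell by 0.81 (SE 0.12, adjusted p = 0.00337) and the coreceptor Lrp5 by 1.32 (SE 0.23, adjusted p = 0.00413), and these 3 genes passed after the GC correction. In OLG against OL 3 genes rose, Porcn, which acylates Wnt ligands (0.67, SE 0.13, adjusted p = 0.0198), Tcf7l1 (0.46, SE 0.11, adjusted p = 0.0312) and Fzd1 (0.32, SE 0.09, adjusted p = 0.0479). None of the 37 passed there after the GC correction, and 6.90% of all genes tested were called higher on the deposited values. Fzd1 was still lower than in PBS (−0.45, SE 0.10, adjusted p = 0.0338). Ctnnb1, which encodes β-catenin, was the most abundant of the list with a mean of 132 FPKM.

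Nkx2-1, the homeobox factor of lung epithelium and of thyroid, was at 88.4, 60.6 and 98.1 FPKM in PBS, at 51.6, 69.2, 60.4 and 63.7 in OL and at 87.0, 64.7, 95.7 and 50.3 in OLG. All groups overlapped. The difference between OL and PBS was −0.40 (SE 0.23), and −0.08 (SE 0.23) after the GC correction, the GC content of Nkx2-1 being 56.9%. That between OLG and OL was 0.24 (SE 0.21) and turned to −0.02 (SE 0.22). Nkx2-1 is also a thyroid gene. Within OL, Tg ranged from 0.256 FPKM in OL 78 to 303 FPKM in OL 56, where Nkx2-1 was at 63.7 and 60.4 FPKM. The 10 thyroid markers summed to 7.14 to 9.01 FPKM in PBS, 25.8 to 346 in OL and 10.3 to 21.1 in OLG, and Pax8 was at 0 in all PBS and OLG libraries. The part of thyroid tissue in the Nkx2-1 level was not tested.

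Of 10 targets of NKX2-1, 3 fell in OL (Abca3, Sftpb and Napsa) and 2 rose (Scgb3a2 and Scgb3a1). Over all genes tested, 22.1% were called lower there and 15.9% higher. Abca3, the lipid transporter of lamellar bodies, fell by 1.23 (SE 0.21, adjusted p = 0.00375), and Sftpb, surfactant protein B, by 1.81 (SE 0.35, adjusted p = 0.00509), from 1063, 800 and 1836 FPKM in PBS to 283, 381, 285 and 385. Scgb3a2, a secretoglobin of club cells, rose by 1.85 (SE 0.43, adjusted p = 0.00916). Abca3, Sftpb and Scgb3a2 passed after the GC correction, whereas Napsa did not (−0.58, adjusted p = 0.16). Sftpa1, not called on the deposited values (−0.65, adjusted p = 0.0515), was called lower after it (−0.96, adjusted p = 0.0357). In all, 3 targets were then called lower and 2 higher, against 12.9% and 7.87% of all genes. Abca3 rose in OLG against OL (0.77, SE 0.19, adjusted p = 0.035), but was at 0.57 (adjusted p = 0.106) after the GC correction. The alveolar marker list summed to 10352 to 16538 FPKM in PBS and 5315 to 8764 in OL. It shares Sftpc, Sftpa1, Sftpb and Lamp3 with the targets, so the sum is no separate measure of alveolar tissue. Of its 8 markers 4 were called lower in OL, beside the same 22.1%. Among those not shared, Ager (−0.94, adjusted p = 0.0315) and Akap5 (−0.88, adjusted p = 0.0189) fell. After the GC correction Akap5 passed (−1.20, adjusted p = 0.0162) and Ager did not (−0.57, adjusted p = 0.184). The means in PBS and OL were 192 and 107 FPKM for Slc34a2 and 18.4 and 17.7 for Rtkn2. The part of alveolar tissue in the lower surfactant genes was not tested. Among 21 tested regulators of lung epithelium, 9 rose and 3 fell in OL, beside the same 15.9% and 22.1% of all genes tested. Foxj1 of ciliated cells rose by 1.41 (SE 0.25, adjusted p = 0.00416) and Sox2 of airway epithelium by 1.23 (SE 0.23, adjusted p = 0.00497), while Etv5, a target of FGF signalling, fell by 1.31 (SE 0.18, adjusted p = 0.00337), and Elf5 and Irx3 fell too. With the GC correction 8 of this list were called higher and 2 lower, against 7.87% and 12.9% of all genes. Irx3 was no longer called (−0.10, adjusted p = 0.622). In OLG Foxj1 (1.78, SE 0.25, adjusted p = 0.00965) and the goblet cell factor Spdef (1.91, SE 0.31, adjusted p = 0.0144) were higher than in PBS, Etv5 was lower than in PBS (−0.76, SE 0.18, adjusted p = 0.0496), and Id2 was lower than in OL (−0.55, SE 0.10, adjusted p = 0.0186). Foxj1 and Spdef passed after the GC correction, but Etv5 (−0.76, adjusted p = 0.0501) and Id2 (−0.42, adjusted p = 0.104) did not. In OLG against PBS 3 genes of the list were then called higher and 0 lower, against 2.77% and 1.49% of all genes.

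Counted together, the 10 members were all lower in mean log2 level in OL than in PBS. At an adjusted p under 0.05, 5 members were called, all lower (Tbx2, Tbx4, Tbx5, Gli1 and Wnt2), where 22.1% of the genes tested were called lower and 15.9% higher. The same 5 did not overlap between the groups, which was so of 25.4% of all genes in the lower direction. Without PBS 3 the count was 3, and Tbx2 was not called without PBS 1, PBS 3, OL 12 or OL 78 and Gli1 not without PBS 3. After the GC correction 3 were called, Tbx4, Tbx5 and Wnt2, against 20.8% of all genes in either direction. In OLG against OL, which shares the OL libraries with the first comparison, 8 members had a higher value, but 5 after the GC correction, and 2, Gli1 and Tbx5, were called on the deposited values, both higher, against 6.90% of all genes called higher and 1.81% lower. The same 2 did not overlap between the groups, which was so of 17.3% of all genes in the higher direction. No member was called without OL 34, OL 56, OLG 1 or OLG 3 (2 to 3 at an unadjusted p under 0.05, by limma), and Gli1 alone was called without OL 78 or OLG 2. After the GC correction limma called no member, with 2 at an unadjusted p under 0.05, and 0.400% of all genes. In OLG against PBS, 1 member was called, Wnt2, lower, against 0.821% of all genes called lower and 2.06% higher, and after the GC correction it was again Wnt2, against 4.25% of all genes in either direction. Wnt2, Wnt5a and Hoxa5 did not overlap between these groups, nor did 7.54% of all genes in the lower direction. Wnt2 was not called without PBS 1, PBS 3, OLG 1, OLG 2 or OLG 4, where limma called no member (2 to 3 at an unadjusted p under 0.05), and 3 members were called without PBS 2. With the replicate number of PBS and OLG as a block, no member was called, with 3 at an unadjusted p under 0.05, and with the block and the GC correction 2 were, Wnt2 and Hoxa5. Since the list was selected on these libraries, nothing is read from these counts about the members.

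Of the 148 tested genes on the 8 developmental lists, 16 rose and 46 fell in OL against PBS, with a median difference of −0.13, where 15.9% of all genes were called higher and 22.1% lower. With the GC correction 15 were called higher and 25 lower, against 7.87% and 12.9% of all genes. Without PBS 3, 40 were called. For fits without a library or with a block, the share of all genes called is not given, so nothing is read from their counts. In OLG against OL 9 rose and 5 fell, where 6.90% of all genes were called higher and 1.81% lower. Limma called none of the list genes after the GC correction, against 0.400% of all genes, with 28 list genes at an unadjusted p under 0.05. Here the count was 0 without OL 34 or OLG 1 (37 at an unadjusted p under 0.05 in both, by limma), 1 without OL 56, 5 without OL 78 or OLG 3 and 7 without OL 12 or OLG 2. In OLG against PBS 2 were called with the replicate block. Without the block 3 rose and 4 fell, where 2.06% of all genes were called higher and 0.821% lower. That count was 0 without PBS 1 (36 at an unadjusted p under 0.05, by limma), 1 without OLG 1, 2 without PBS 3, 4 without OLG 2, 18 without OLG 3 and 30 without PBS 2.

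**Figure D5:**
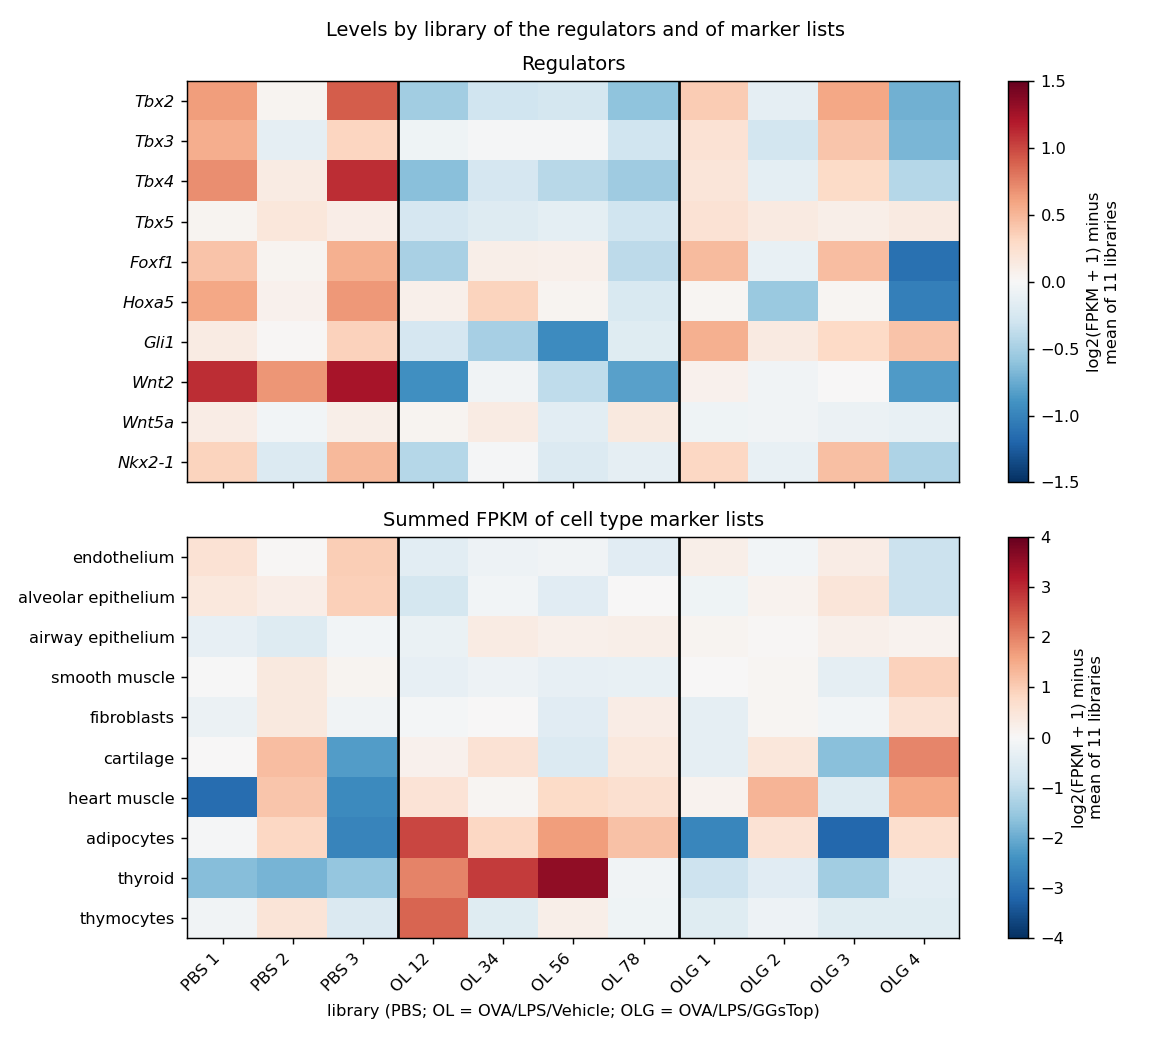
Level of each regulator (top) and summed FPKM of 10 cell type marker lists (bottom) in the 11 libraries, as log2(FPKM + 1) minus the mean of the 11 libraries, red above and blue below that mean. OLG 4 and PBS 2 are the libraries of their groups in which most regulators are lowest and the cartilage and heart muscle lists are highest.

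Within PBS and within OLG, most members were lowest in the same library, which was not so within OL. In OLG 8 of the 10 were lowest in OLG 4, where Foxf1 stood at 36.9%, Wnt2 at 47.9%, Tbx2 at 48.7%, Hoxa5 at 52.1%, Tbx3 at 54.5%, Nkx2-1 at 61.0% and Tbx4 at 67.1% of the mean of OLG 1 to 3. Tbx5 (98.4%), Gli1 (109%) and Wnt5a (96.2%) were near or above that mean. In PBS 9 of the 10 were lowest in PBS 2, at 56.5% (Tbx4) to 87.5% (Wnt5a) of the mean of PBS 1 and PBS 3, and Tbx5 was highest there (108%). In OL, OL 12 and OL 78 were each lowest for 4 members and OL 56 for 2. Tbx5 was thus at 11.2 FPKM in OLG 3 and 11.5 in OLG 4, where Foxf1 was at 157 and 51.6 FPKM.

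Markers of other cell types moved in the same libraries. The endothelial list summed to 471 FPKM in OLG 4, the lowest of all libraries, and to 785 to 1056 in OLG 1 to 3, and to 878 in PBS 2 against 1268 in PBS 1 and 1686 in PBS 3. Between groups it was 878 to 1686 FPKM in PBS and 629 to 781 in OL, and 5 of its 6 markers fell there, none of which passed after the GC correction (adjusted p of 0.0657 for Kdr to 0.273 for Pecam1 over the 6). On the deposited values 22.1% of all genes tested were called lower in OL against PBS. The alveolar list was also lowest in OLG 4 (4703 FPKM, against 7664 to 12087 in OLG 1 to 3). The cartilage list, in contrast, was highest in OLG 4 (263 FPKM) and PBS 2 (161 FPKM), and 5 of its 7 markers were at 0 in PBS 3. The fibroblast list, at 248 to 388 FPKM in PBS, 216 to 365 in OL and 227 to 442 in OLG, overlapped between all groups, and 2 of its 8 markers, Col1a1 and Pdgfra, fell in OL against PBS, of which Pdgfra passed after the GC correction. Like the cartilage list, the fibroblast list was highest in OLG 4 (442 FPKM) and PBS 2 (388 FPKM) within their groups, as was the smooth muscle list (1172 and 795 FPKM). The part of these cell types in the levels of the members was not tested, and fewer cells of a type cannot be told apart from less RNA per cell in such samples.

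Over all 11 libraries the median Pearson r of the 45 pairs of members was 0.57, with 4 pairs below 0, and 0.58 after the GC correction. The points share groups, depth and tissue makeup. Tbx5 and Wnt5a had the lowest r (−0.47), and Tbx2 and Tbx4 the highest (0.95). The tested genes most like each member were Egfl7 (0.99) and Acvrl1 (0.99) for Tbx2, Rasgef1a (0.96) and Car4 (0.96) for Tbx3, Scnn1b (0.99) and Cyp4b1 (0.99) for Tbx4, and Fblim1 (0.96) and Emc8 (0.95) for Tbx5. For Foxf1 they were Pde4b (0.97) and Klhl5 (0.97), for Hoxa5 Clec14a (0.97) and Ppp1r16b (0.96), and for Gli1 Ubap2l (0.97) and Pla2g6 (0.97). For Wnt2 they were Spry1 (0.98) and Gabarapl1 (0.98), for Wnt5a Snx18 (0.81) and Irx5 (0.81), and for Nkx2-1 Ankrd13a (0.97) and Bicd2 (0.96). Egfl7, Acvrl1 and Clec14a are endothelial genes, and no cell type was assigned to the other genes named here. After the GC correction Egfl7 was again the nearest to Tbx2 (0.996), Scnn1b to Tbx4 (0.99) and Fblim1 to Tbx5 (0.95), Ppp1r16b (0.97) came first for Hoxa5, and the genes nearest to the other members changed, for Wnt5a to Timp1 (0.93).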

How the data were processed

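Airway RNA of 3 PBS, 4 OL and 4 OLG libraries was sequenced, grouped by their labels. The authors deposited FPKM per gene and library. The submitters' processing notes name cutadapt 1.15, HISAT2 2.0.5, HTSeq 0.9.1 and the build mm39, and the annotation is not given in the sources used here. Gene positions, exon lengths and GC content (longest transcript) came from GENCODE M21 on GRCm38, to which 21846 identifiers matched, and the table itself holds no coordinates. FPKM times exon length was a whole multiple of the value of 1 fragment (within 0.05 fragments, with a relative allowance for large values) in every library for 97.8% of genes.

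Genes whose mean reached 0.5 FPKM were fitted on the scale log2(FPKM + 1) with limma 3.58.1 (R 4.3.3, mean-variance trend, 1 fit of 3 groups), with two-sided p adjusted by Benjamini-Hochberg over 14004 genes and a call at an adjusted p under 0.05. Fold changes on this scale understate those of low genes. The study's own count-based test was not repeated, since FPKM were deposited, and limma voom on the recovered fragments (13683 genes) was an alternative. The GC correction subtracted a spline with 5 degrees of freedom from the deviations of each library (13987 genes). The script was tested on simulated data. Figures were drawn with matplotlib 3.10.9.

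The members and lists were chosen with earlier results of these data known. Named were all members, their family neighbours, up to 3 genes of smallest p per list and comparison among those called, up to 3 per list by mean FPKM, the 2 genes most like each member, and up to 3 markers per list. Tg, Rag1, Pax8, Ptch1, Gas1, Sftpa1, Ager, Akap5, Rtkn2, Slc34a2 and the genes given without values were named after their values were seen where this rule does not cover them. No member fell under the filter, so no exact test of single genes was needed. The deviations of same-numbered libraries of PBS and OLG had correlations of 0.16, 0.62 and 0.40 for the numbers 1 to 3. PBS 1 and OLG 3 were at 0.42. Deviations from a mean of 3 libraries depend on one another, so these values cannot show a pairing. The replicate block is given where it changed a call, although the labels do not say what the numbers stand for. A gene of the hedgehog list is counted but not reported here by name.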

Additional observations from a re-analysis of the deposited data

Results flagged for a closer look

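In the OL group, OL 12 stood apart from the other libraries in the summed FPKM of the 7 thymocyte markers, at 74.1 against 9.79 to 16.6 in the other libraries of the group. In OLG, OLG 2 stood apart in the same sum, at 12.1 against 9.67 to 9.88. Both exceeded the critical value of Dixon's test for 4 libraries, among 48 groups of values tested, of which chance alone gives about 1 in 20. No member stood apart in this way. The levels of the members in OL 12 lay within the range of the other OL libraries or below it, the latter for Tbx4, Foxf1, Wnt2 and Nkx2-1.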

How the results depend on the processing

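The count of members called in OL against PBS stayed at 5 with 0.1 as pseudocount, with a filter at 1 FPKM, with no filter, without the mean-variance trend, after rescaling to equal nonmitochondrial totals or equal medians, with a fit of the groups compared alone and voom on recovered fragments. It was 8 with array weights, 3 with the GC correction, 2 with the GC and length correction and 3 to 5 when a library was left out. The genes called on the developmental lists were 62, but 96 with array weights, 40 with the GC correction, 37 with the GC and length correction and 40 to 80 with a library left out. In OLG against OL the members called were 2, but 4 with array weights, 0 with either correction and 0 to 2 with a library left out. The list genes called were 14, but 9 at the same median, 48 with array weights, 30 with these groups alone, 0 with either correction (28 and 25 at an unadjusted p under 0.05, by limma) and 0 to 18 with a library left out. In OLG against PBS the members called were 1, but 0 with no filter or these groups alone (3 at an unadjusted p under 0.05 in both), 3 with array weights and 0 to 3 with a library left out. The list genes called were 7, but 50 with array weights, 0 with these groups alone (41 at an unadjusted p under 0.05), 11 with the GC and length correction and 0 to 30 with a library left out. The number of all genes called also moved with the setting. In OLG against OL it was 1220, but 791 at the same median and 56 with the GC correction. The share of all genes called is not given here for array weights, left-out libraries or the replicate block. Nothing is therefore read from those counts about the members or the lists. The cause of these changes was not tested.

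With the replicate block for OLG against PBS, 0 members and 2 list genes were called, and with the replicate block and the GC correction 2 members and 9 list genes. Nkx2-1 turned from −0.16 to 0.0119 with the block, to 0.0894 with the block and the GC correction, and to between −0.363 and 0.0119 with a library left out.

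Other values near 0 changed sign. For OL against PBS, Wnt5a ranged from −0.0596 to 0.0529 with a library left out. For OLG against OL, Tbx3 (0.02) was −0.000834 at the same total, −0.0238 at the same median, −0.154 with the GC correction, −0.242 with the GC and length correction and −0.148 to 0.221 with a library left out. Foxf1 was −0.0796 with the GC correction, −0.0748 with the GC and length correction and −0.0788 to 0.451 with a library left out, and Nkx2-1 was −0.0152 and −0.0556 with these corrections. Tbx5 against PBS (0.04) was −0.00184 at the same median.

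Chosen after seeing the data, leaving out OL 12, OL 34 and OL 56 together left OL 78 alone, assumed to vary like the other groups. Limma then called 0 members and 0 list genes in both comparisons that use it (3 and 36 at an unadjusted p under 0.05 against PBS, 2 and 9 for OLG against it), and Wnt5a was 0.0932. Without PBS 3 and OLG 4 together, 4 members and 36 list genes were called between OLG and OL, and 0 members and 1 list gene between OLG and PBS (1 and 37 at an unadjusted p under 0.05). Wnt5a was then 0.00261 against PBS in OL, and Foxf1 was 0.0383 and Nkx2-1 0.151 against PBS in OLG.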
